A study of Mus musculus with 4 samples.

Results

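The insulin-like growth factor (IGF) axis was followed through 10 genes, 2 ligands (Igf1, Igf2), 2 receptors (Igf1r, Igf2r), 5 secreted binding proteins (Igfbp2, Igfbp3, Igfbp4, Igfbp5, Igfbp6) and the adaptor Grb10. They were chosen by symbol with the measured levels and differences of these same 4 arrays in view, so their values in the comparisons below are descriptions. Symbols were matched to the platform annotation. All 10 were found, as 28 probe sets with a single gene symbol, among 18193 genes measured. A gene with several probe sets is represented by the one whose mean was highest (its main probe set), and all 10 reached the floor of 5.41 (log2), the median of the whole value table, on at least 1 array.

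IGF-1 and IGF-2 are secreted growth factors that act through the tyrosine kinase receptor encoded by Igf1r, which signals through IRS proteins to PI3K and AKT. Igf2r encodes a receptor without kinase activity that takes up and clears IGF-2 and carries mannose 6-phosphate enzymes to lysosomes. The binding proteins hold IGFs outside the cell and can either restrain or prolong their action. Grb10 is an adaptor that binds the activated IGF-1 and insulin receptors and dampens their signal. In mice Igf2, Igf2r and Grb10 are imprinted.

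The cells were SVEC4-10, an SV40-transformed mouse endothelial line. The 4 groups had 1 array each: cells left untreated, cells transduced with a lentiviral vector (pLENTI6/Block-iT) free of any insert, and cells given the same kind of vector expressing a hairpin against Mical2 or against Mical3, with blasticidin selection of all transduced cells. MICAL2 is an enzyme that oxidises actin filaments, and Mical3 encodes a relative. RNA of 3 biological replicates was pooled on each array, which hides the spread between them, and no comparison below has a test. Whether fewer cells expressed a gene or each cell held less of its RNA cannot be told apart in such samples.

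Array medians lay between 5.40 and 5.44, and correlations between arrays over all probe sets between 0.978 and 0.990. Mical2 was read by 2 probe sets, at 5.53 and 5.53 on the Mical2-labelled array, 5.33 and 5.60 on the untreated array, 4.64 and 5.14 on the insert-free array and 6.0 and 6.08 on the Mical3-labelled array. Mical3 was at 7.24 on the Mical3-labelled array, 7.39 on the untreated array, 7.29 on the insert-free array and 6.83 on the Mical2-labelled array. By its single probe set Mical3 was thus not 2-fold below both controls on its own array. The knock-down named in the label was therefore not seen at that size, and the reason was not tested. Mical2 lay too close to the floor in both controls for a 2-fold decrease to be seen, so it does not check its label. Directions below are differences between labelled arrays. Of 12 endothelial markers, 3 (Kdr, Eng and Esam) reached the floor on every array and 9, Pecam1 and Cdh5 among them, on none. Of 4 lymphatic endothelial markers, Flt4 (7.55 to 9.18) and Pdpn (11.67 to 12.50) reached it on every array, and Prox1 and Lyve1 on none.

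A gene was called higher or lower where a log2 difference reached 1 (2-fold) and at least 1 of the levels compared was not under the floor. For a hairpin array both controls had to be passed, in one direction. For scale, among 3076 genes with 2 probe sets whose means reached the floor, the standard deviation of 1 probe set's difference was 0.26 to 0.39, depending on the arrays compared. This holds no culture or hybridisation spread, so the full error can be larger. It also takes in what differs between the probe sets of a gene.

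**Figure D1:**
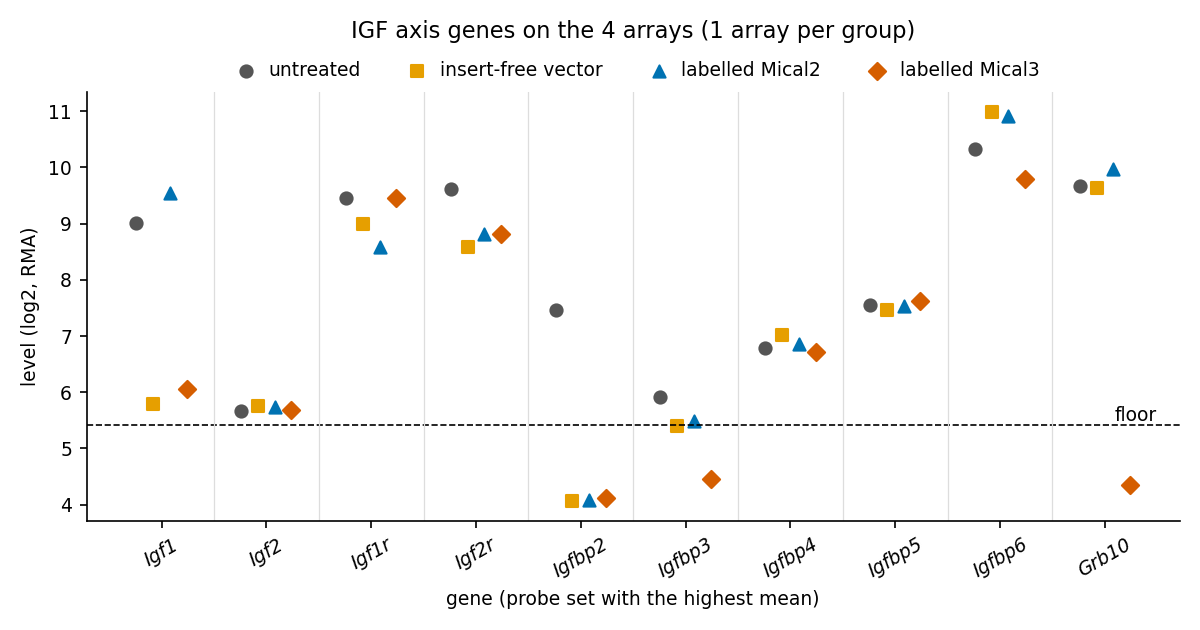
Level (log2, RMA) of each of the 10 genes on each of the 4 arrays, 1 point per array, by its main probe set, with the floor of 5.41 dashed. Igf1 has a high pair and a low pair of arrays, Igfbp2 stands at 7.46 on the untreated array and at 4.06 to 4.12 elsewhere, and Grb10 is at 4.34 on the Mical3-labelled array.

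Of the ligands, Igf1 differed widely between arrays. It stood at 9.01 on the untreated array, 5.79 on the insert-free array, 9.55 on the Mical2-labelled array and 6.05 on the Mical3-labelled array. The untreated array and the Mical2-labelled array were thus high, and the insert-free array and the Mical3-labelled array low. The insert-free array was 3.22 below the untreated array (9.32-fold), and the Mical2-labelled array was 3.50 above the Mical3-labelled array (11.3-fold) and 3.76 above the insert-free array (13.5-fold). Against both controls neither hairpin array was called for Igf1, since the controls themselves lay apart.

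All 4 Igf1 probe sets were high on the same pair of arrays and low on the other pair. Besides the probe set 1452014_a_at described above, 1437401_at read 9.35, 5.47, 9.59 and 5.85 on the untreated, insert-free, Mical2-labelled and Mical3-labelled arrays. In the same order 1434413_at read 8.86, 4.51, 8.84 and 4.44, and 1419519_at read 7.79, 4.33, 8.29 and 4.39. In the pair whose levels all passed the floor (1452014_a_at and 1437401_at), the insert-free array differed from the untreated array by -3.22 and -3.88. The low levels of the other pair were under the floor, so that only bounds hold: the untreated array was at least 10.9-fold higher than the insert-free array by 1434413_at and at least 5.21-fold higher by 1419519_at. The Mical2-labelled array differed from the untreated array by -0.02 to 0.54 over the 4 probe sets, and the Mical3-labelled array from the insert-free array by 0.26 and 0.38 over the pair that passed the floor. These differences lie under the fold required for a call.

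Of the 12166 genes that reached the floor, 49 (0.403%) were at least 1 higher on both the untreated array and the Mical2-labelled array than on both others, and Igf1 was the 1 member among them. A range at least as wide as that of Igf1 over the arrays, 3.76, was found for 93 genes, Igf1 included (0.764%), while the median range over all genes was 0.55. Nearest profiles were found by Euclidean distance between log2 levels centred on each gene's mean over the 4 arrays. Predicted genes that lack a proper name were skipped, here and for the other members below. The 3 nearest to Igf1 were Serpinf1 (distance 0.61), the type III collagen gene Col3a1 (0.77) and the matrix glycoprotein gene Emilin1 (0.86). Col3a1 was at 13.29 on the untreated array, 10.30 on the insert-free array, 13.25 on the Mical2-labelled array and 10.79 on the Mical3-labelled array.

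Some fibroblast markers moved with Igf1. Of the 9 listed, 6 reached the floor, and 4 of these (Col1a2, Col3a1, Pdgfra and Postn) were at least 1 higher on the untreated array and the Mical2-labelled array than on both others. The log2 of the summed linear levels of all 9 was 15.56 on the untreated array, 12.98 on the insert-free array, 15.20 on the Mical2-labelled array and 13.50 on the Mical3-labelled array. Dcn, the highest of the 9 on the Mical3-labelled array, did not follow, at 12.36, 10.52, 12.27 and 12.79 in that order. Col1a1 read 12.99, 10.95, 12.15 and 11.27, with the hairpin arrays less than 1 apart. The low arrays of Col1a2 lay apart, at 11.64 on the insert-free array and 6.19 on the Mical3-labelled array. Lum, Thy1 and Fap were below the floor throughout. Of 8 mural markers 4 reached the floor, and 1 of these, Pdgfrb, had the same high arrays. It read 10.28 on the untreated array, 8.13 on the insert-free array, 10.71 on the Mical2-labelled array and 3.55 on the Mical3-labelled array. Cspg4 (6.25 to 6.40) and Des (6.58 to 6.97) were nearly level, and Notch3 was highest on the insert-free array, at 5.80. The part of these cell type markers in the Igf1 result was not tested.

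**Figure D2:**
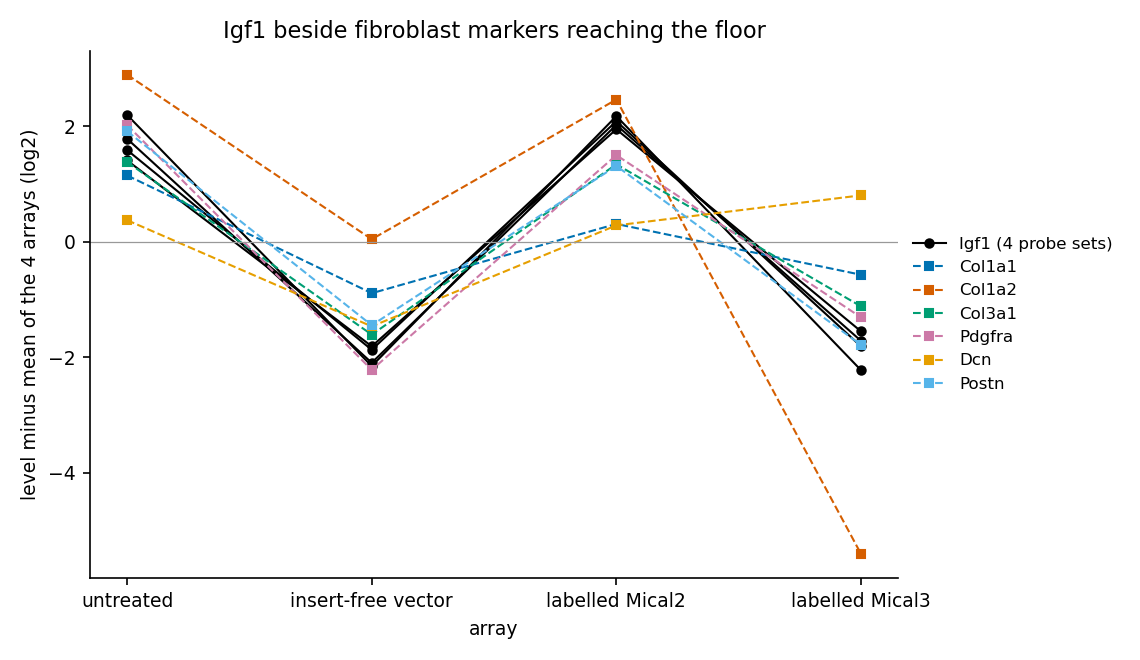
Levels of the 4 Igf1 probe sets (black) and of the 6 fibroblast markers that reached the floor (dashed), each minus its own mean over the 4 arrays (log2), by array. The Igf1 lines are high on the untreated array and the Mical2-labelled array, and Dcn is the marker that is not low on the Mical3-labelled array.

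The bases upstream of the 1 Igf1 start listed are printed because all 4 Igf1 probe sets showed the difference. They are the 250 bases before the RefSeq start (GRCm38.p6, chr10:87860861-87861110, + strand), with motif matches in capitals. The motifs searched on both strands were the GC box GGGCGG, the TATA box TATAAA, the CCAAT box, the AP-1 site TGANTCA and the CArG box, the site of SRF.
Igf1 upstream: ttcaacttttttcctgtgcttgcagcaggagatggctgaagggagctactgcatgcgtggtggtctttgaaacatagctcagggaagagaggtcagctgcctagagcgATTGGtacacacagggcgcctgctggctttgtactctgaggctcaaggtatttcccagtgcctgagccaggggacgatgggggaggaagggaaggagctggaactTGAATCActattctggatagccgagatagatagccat
The capitals mark 1 CCAAT box, on the opposite strand, and 1 AP-1 match, which do not overlap. The AP-1 motif searched leaves its middle base free, and in this match that base is A. Of 32851 starts in the RefSeq table, 33.8% hold a CCAAT box and 6.75% an AP-1 match in a window of this length. No GC box, TATA box or CArG box was found in these letters, and the shares over all starts are 32.7%, 12.4% and 1.47%. The window holds 5 CG dinucleotides, where the median over all starts is 6. Whether the transcripts read by the Igf1 probe sets came from this start was not tested.

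Igf2, the other ligand, barely varied. Its levels were 5.66 on the untreated array, 5.76 on the insert-free array, 5.73 on the Mical2-labelled array and 5.68 on the Mical3-labelled array, all just above the floor, a range of 0.10. A range at least as wide was found for 98.3% of genes. The other Igf2 probe set lay below the floor on every array, between 3.50 and 3.79.

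Igf1r, the signalling receptor, was well above the floor on every array by 3 of its 5 probe sets, but these disagreed on the Mical3-labelled array. The main probe set 1452982_at read 9.46 on the untreated array, 9.0 on the insert-free array, 8.58 on the Mical2-labelled array and 9.46 on the Mical3-labelled array. Its lowest level was on the Mical2-labelled array, 0.88 below both the untreated array and the Mical3-labelled array, short of the fold required. The probe set 1428967_at was also lowest on that array, at 8.84, 8.33, 7.95 and 8.88 on the untreated, insert-free, Mical2-labelled and Mical3-labelled arrays. By contrast 1426565_at read 8.33, 7.91, 8.05 and 9.32, which put the Mical3-labelled array 1.41 above the insert-free array and 0.99 above the untreated array. The other 2 probe sets stayed between 5.13 and 5.91.

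Igf2r, the clearance receptor, was highest on the untreated array by both probe sets. The main one, 1424112_at, read 9.62 there, 8.59 on the insert-free array, 8.82 on the Mical2-labelled array and 8.82 on the Mical3-labelled array. The second, 1424111_at, read 9.25, 7.81, 8.13 and 8.33 in the same order. Igf2r was called lower on the insert-free array than on the untreated array, by 1.03 in the main probe set (2.04-fold) and 1.44 in the other. On both hairpin arrays it was 0.80 below the untreated array in the main probe set and thus not called. Another probe set carries the symbols of both Airn, the antisense transcript of this imprinted locus, and Igf2r, and read 5.63, 5.24, 5.07 and 5.46 in the same order. It was left out, as its signal cannot be assigned to either.

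**Figure D3:**
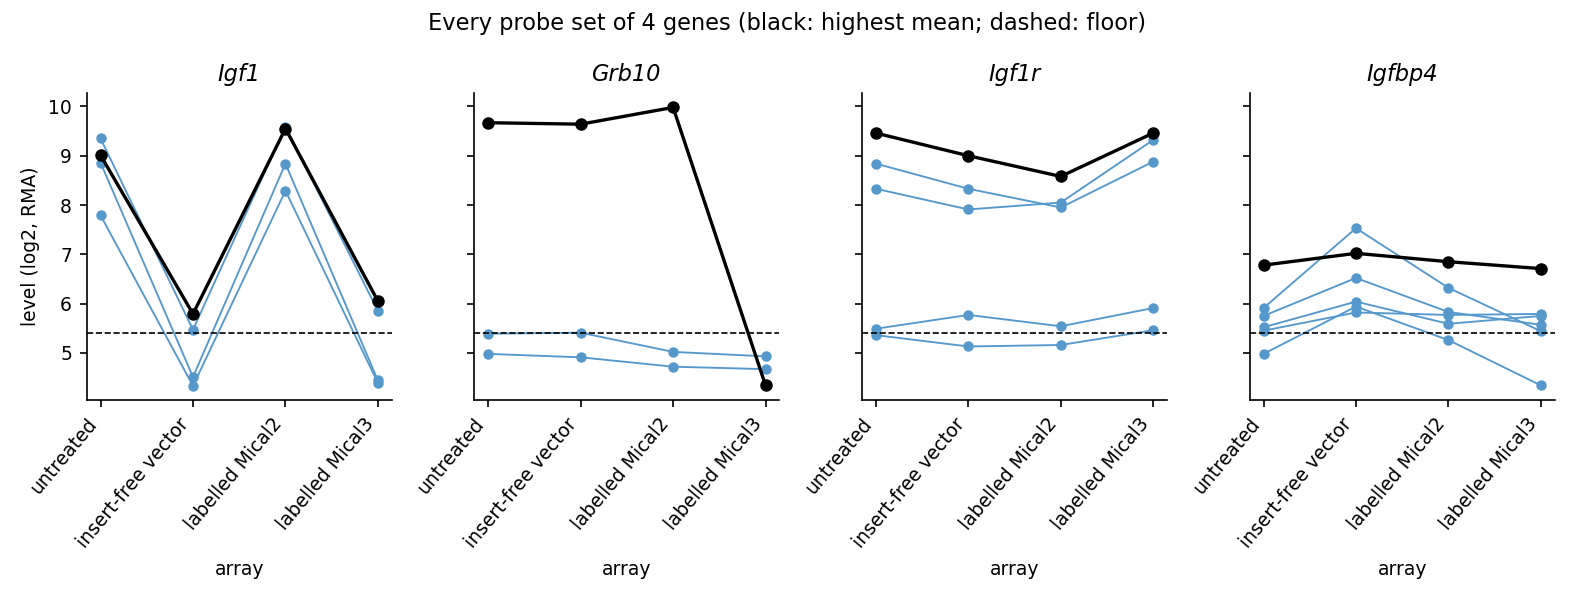
Levels (log2, RMA) of every probe set of Igf1, Grb10, Igf1r and Igfbp4 by array, the main probe set in black and the floor dashed. The 4 Igf1 lines run together, 1 of 3 Grb10 probe sets carries its difference, and Igf1r and Igfbp4 probe sets differ in shape.

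Among the binding proteins, Igfbp2 was above the floor on 1 array. It read 7.46 on the untreated array, 4.06 on the insert-free array, 4.08 on the Mical2-labelled array and 4.12 on the Mical3-labelled array, by the single probe set 1454159_a_at. The 3 transduced arrays lay within 0.06 of each other and below the floor, and the untreated array stood alone. The difference of the insert-free array from the untreated array was -3.40. Taken to the floor, the untreated level was at least 4.14-fold higher than on each transduced array. Of the 12166 genes at the floor, 23 (0.189%) stood at least 1 higher on the untreated array than on each of the other arrays.

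The nearest profile to Igfbp2 was that of Bmp2, a bone morphogenetic protein gene (distance 0.24), at 6.55 on the untreated array and 3.06, 3.26 and 3.45 on the insert-free, Mical2-labelled and Mical3-labelled arrays. Cyba, a subunit of NADPH oxidase (0.67), and the cytokine gene Il33 (1.06) followed. Igfbp2 lies next to Igfbp5 in the mouse gene order, and Rpl37a lies on its other side. Igfbp5 read 7.55, 7.47, 7.54 and 7.63 on the untreated, insert-free, Mical2-labelled and Mical3-labelled arrays, and Rpl37a between 14.65 and 14.78. Neither neighbour, chosen after its values were seen, showed the untreated level apart.

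RefSeq gives 2 starts for Igfbp2. The 250 bases before the upstream one (GRCm38.p6, chr1:72824230-72824479, + strand) are shown with motif matches in capitals, for comparison with the starts of Igf1 and Grb10.
Igfbp2 upstream, start 1: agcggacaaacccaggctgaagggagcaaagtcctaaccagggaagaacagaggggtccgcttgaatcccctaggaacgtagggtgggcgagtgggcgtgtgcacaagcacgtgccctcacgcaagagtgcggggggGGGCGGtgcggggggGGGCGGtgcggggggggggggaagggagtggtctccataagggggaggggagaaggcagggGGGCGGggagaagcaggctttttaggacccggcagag
The capitals are 3 GC boxes that do not overlap, and none of the other motifs was found in this window. It holds 14 CG dinucleotides, a count that 29.4% of all starts reach. The window before the second start holds 1 AP-1 match and no GC box.

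Igfbp6, a binding protein that prefers IGF-2, was high on all arrays by its 1 probe set. It read 10.33 on the untreated array, 10.99 on the insert-free array, 10.91 on the Mical2-labelled array and 9.79 on the Mical3-labelled array. The insert-free array and the Mical2-labelled array were high, and the Mical3-labelled array was lowest. The Mical2-labelled array stood 1.12 above the Mical3-labelled array (2.17-fold), and the Mical3-labelled array stood 1.2 below the insert-free array (2.30-fold) but 0.54 below the untreated array, so it was not called against both controls.

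Igfbp3, the main carrier of IGFs in blood, lay close to the floor. It read 5.92 on the untreated array, 5.40 on the insert-free array, 5.49 on the Mical2-labelled array and 4.46 on the Mical3-labelled array. The array labelled Mical3 was lowest, 1.03 below the Mical2-labelled array and 1.46 below the untreated array. That level is under the floor, and set to the floor it leaves the untreated array at least 1.42-fold and the Mical2-labelled array at least 1.06-fold higher, neither of which reaches the fold required. With the mean of its 2 probe sets the difference from the untreated array became -0.92, which ended that call. The difference of 1.03 became 0.99 with a loess correction, 0.78 with the mean of its 2 probe sets and 0.68 with 16 added on the linear scale, and each of these ended the call. The second probe set stayed below the floor, from 4.44 to 4.97.

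For Igfbp4 the answer depended on the probe set. The main one, 1423757_x_at, was nearly level at 6.78 on the untreated array, 7.02 on the insert-free array, 6.85 on the Mical2-labelled array and 6.71 on the Mical3-labelled array. The probe set 1437405_a_at read 5.91, 7.53, 6.32 and 5.44, with the insert-free array high. All 6 Igfbp4 probe sets put the insert-free array above the untreated array, by 0.24 to 1.62, and 1 of the 6 by at least 1. The Mical2-labelled array differed from the insert-free array by -1.21 to -0.05 and the Mical3-labelled array by -2.09 to -0.03. Igfbp5 had a level main probe set, with a range of 0.16, and another between 3.42 and 3.86, below the floor.

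Grb10, the adaptor, had the widest range of the 10 genes and was the 1 member called against both controls. The probe set 1425458_a_at read 9.67 on the untreated array, 9.64 on the insert-free array, 9.98 on the Mical2-labelled array and 4.34 on the Mical3-labelled array. The first 3 arrays lay within 0.34 of each other and the Mical3-labelled array below the floor. It was 5.30 below the insert-free array and 5.33 below the untreated array, or at least 18.8-fold and 19.2-fold lower when the low level is set to the floor. A range at least as wide as its 5.64 was found for 17 of 12166 genes, Grb10 included (0.140%). This value was known when the genes were listed and is given as a description.

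The other 2 Grb10 probe sets lay at or below the floor on every array. In the order untreated, insert-free, labelled Mical2 and labelled Mical3, 1430164_a_at read 5.39, 5.41, 5.02 and 4.93, and 1425457_a_at read 4.98, 4.91, 4.72 and 4.67. The call therefore rests on 1 probe set, and the mean of the 3 probe sets differed by -2.01 from the insert-free array.

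Among all genes at the floor, 191 (1.57%) were at least 1 lower on the Mical3-labelled array than on each other array. The profiles nearest to Grb10 were those of the kinase gene Dclk1 (distance 0.57), with 9.40 on the untreated array, 9.93 on the insert-free array, 9.52 on the Mical2-labelled array and 4.05 on the Mical3-labelled array, of Ptgfrn (0.97) and of the glycolipid enzyme gene B4galt6 (1.0). Of the cell type markers, Col1a2 (6.19) and Pdgfrb (3.55) were also at least 1 lower on the Mical3-labelled array than on every other array, and their part in the Grb10 value was not tested. Of the 6 nearest protein-coding neighbours in the gene order, chosen after their values were seen, Fignl1 (10.73 on the Mical3-labelled array, 10.41 to 11.23 on the others) and Cobl reached the floor. Cobl, an actin nucleator next to Grb10, was called higher on the Mical3-labelled array, at 8.38 with 6.61 on the insert-free array and 6.49 on the untreated array. Ddc, Ikzf1, Pom121l12 and Vstm2a were below the floor on every array.

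RefSeq gives 2 starts for Grb10, and the 250 bases before each (GRCm38.p6, - strand) are shown because the starts of this imprinted gene differ sharply in base composition. Start 1 is preceded by chr11:12037421-12037670 and start 2 by chr11:12027972-12028221. Capitals mark the motif matches.
Grb10 upstream, start 1: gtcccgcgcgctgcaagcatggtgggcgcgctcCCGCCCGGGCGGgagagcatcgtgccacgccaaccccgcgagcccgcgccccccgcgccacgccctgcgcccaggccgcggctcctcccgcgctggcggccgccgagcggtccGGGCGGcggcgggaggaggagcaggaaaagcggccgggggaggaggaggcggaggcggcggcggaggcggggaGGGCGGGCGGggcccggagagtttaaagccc
Grb10 upstream, start 2: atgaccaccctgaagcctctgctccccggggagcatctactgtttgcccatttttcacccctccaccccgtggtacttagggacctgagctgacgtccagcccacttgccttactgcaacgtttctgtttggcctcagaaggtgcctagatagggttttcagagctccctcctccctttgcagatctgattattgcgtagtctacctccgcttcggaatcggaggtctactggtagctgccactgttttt
The window before start 1 is 81.2% G or C with 40 CG dinucleotides, a count that 1.31% of all starts reach. It holds 5 GC boxes, of which 1 pair overlaps. The window before start 2 is 54.0% G or C with 8 CG dinucleotides and none of the motifs searched. Which start gave the transcript read by the probe set was not tested.

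By comparison, the 10 genes can be counted against all genes. On the Mical2-labelled array none of the 10 was called against both controls, where 2.73% of 12072 genes were (0.977% higher and 1.75% lower). On the Mical3-labelled array, 1 of 10 was called, Grb10 as lower, where 3.87% of 12011 genes were called in either direction, 2.49% as lower and 1.38% as higher. For the insert-free array against the untreated array, 3 of 10 were called, all lower (Igf1, Igf2r and Igfbp2), where 5.83% of 11849 genes were called, 2.57% as lower and 3.26% as higher. For the Mical2-labelled array against the Mical3-labelled array, 4 of the 9 at the floor were called, all higher (Igf1, Igfbp3, Igfbp6 and Grb10), where 7.53% of 11928 genes were called, 3.81% as higher and 3.72% as lower. Against a single control the counts were as follows. Against the insert-free array alone, Igf1 was called higher on the Mical2-labelled array, where 10.7% of the 11990 genes at the floor were called (3.82% higher and 6.91% lower). Against the same control, Igfbp6 and Grb10 were called lower on the Mical3-labelled array, where 11.8% of genes were (4.64% higher and 7.13% lower). Against the untreated array alone, Igfbp2 was called lower on the Mical2-labelled array, where 3.89% of genes were called (1.44% higher and 2.44% lower). With that control Igf1, Igfbp2, Igfbp3 and Grb10 were called lower on the Mical3-labelled array, where 5.67% of genes were (1.95% higher and 3.72% lower). The comparisons share arrays, and the list was made with results in view, so nothing is read from these counts about the list.

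The median difference of the 10 genes on the Mical2-labelled array was 0.05 from the insert-free array and 0.03 from the untreated array, beside -0.05 and -0.03 over all genes. On the Mical3-labelled array it was -0.01 and -0.67, beside -0.03 and 0.01. The insert-free array had a median of -0.27 from the untreated array, beside 0.04 over all genes. Just inside the fold required were Igf2r (-1.03, insert-free against untreated) and Igfbp3 (1.03, labelled Mical2 against labelled Mical3). Igfbp6 was also inside, at 1.12 between the hairpin arrays and -1.2 for labelled Mical3 against insert-free. Just outside were Igf1r (-0.88) and Igf2r (-0.80). Igfbp3 on the Mical3-labelled array was -0.94 from the insert-free array, with both levels under the floor.

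**Figure D4:**
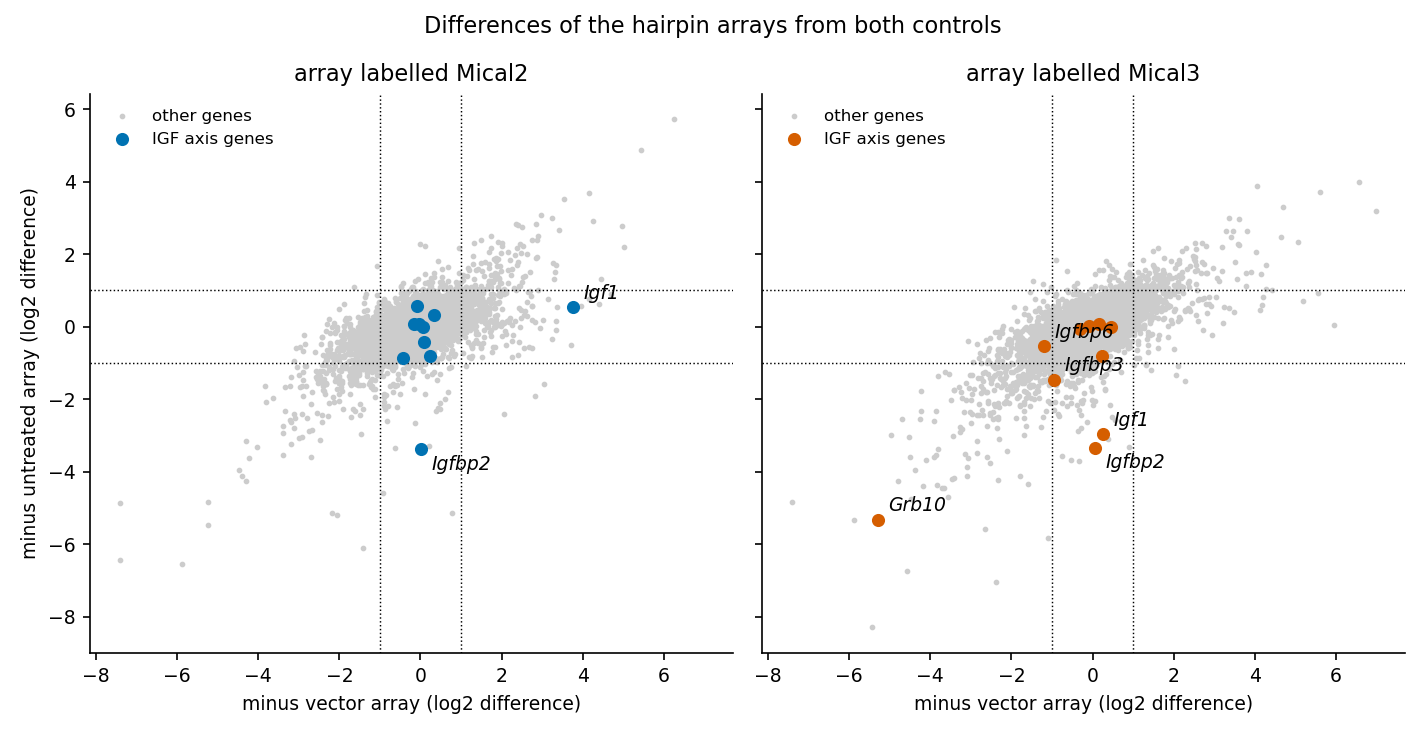
Log2 difference of each hairpin array from the insert-free array (horizontal) and from the untreated array (vertical) for all genes at the floor (grey) and the 10 IGF axis genes (coloured), with dotted lines at 1 and -1. The axes share the hairpin array. Igf1 (3.76) and Igfbp2 (-3.38) each pass against 1 control on the Mical2-labelled array, and Grb10 passes against both on the Mical3-labelled array.

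The surrounding IGF pathway was read through 54 further genes, of which 47 reached the floor in the comparison of the hairpin arrays. On the Mical2-labelled array, 1 was called lower against both controls and none higher. This was Insr, the insulin receptor, which Grb10 also binds, at 6.46 with 9.04 on the insert-free array and 7.69 on the untreated array (6.88 on the Mical3-labelled array). Its other 2 probe sets were below the floor, from 4.75 to 5.06, and the call rests on 1 probe set. The list's medians were -0.32 from the insert-free array and -0.14 from the untreated array. The called share of the list, 2.13%, is near the 2.73% of all genes.

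On the Mical3-labelled array, 1 pathway gene was called higher and 1 lower against both controls. Igfbp7, a relative of the binding proteins with low affinity for IGFs, was the higher one, at 13.00 with 9.09 on the insert-free array and 11.49 on the untreated array. It was at 12.24 on the Mical2-labelled array, 3.15 above the insert-free array but 0.75 above the untreated array. Of its other probe sets, 1423585_at read 6.61 on the Mical3-labelled array and 4.38 on the insert-free array, while 1437804_at read 7.16 and 6.93. The lower one was Htra1, a secreted serine protease that can cleave binding proteins, at 8.88 with 10.63 on the insert-free array and 10.37 on the untreated array, and its second probe set read 8.94, 10.39 and 10.23. The list's medians were -0.18 and -0.10, and its called share of 4.26% is near the 3.87% of all genes.

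The insert-free array was called higher than the untreated array for 1 of 46 pathway genes at the floor, Insr, and lower for Adam12 and Igfbp7. The Igfbp7 call rests on its main probe set. Of the others, 1437804_at read 6.93 on the insert-free array and 6.62 on the untreated array, and 1423585_at lay below the floor on both. Adam12, a metalloprotease known to cleave Igfbp3 and Igfbp5, read 8.16 on the untreated array, 5.01 on the insert-free array, 7.56 on the Mical2-labelled array and 4.48 on the Mical3-labelled array. The high and low arrays of Adam12 were those of Igf1, and its low levels were under the floor, so that only bounds hold for differences from them. Its second probe set was below the floor, from 3.40 to 4.16. The list's called share was 6.52%, beside 5.83% of all genes.

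Between the hairpin arrays, 3 pathway genes were called higher on the Mical2-labelled array and 1 lower. The higher ones were Adam12, Irs1 (11.04 and 9.98), a receptor substrate, and Pik3r3 (8.80 and 7.56), a regulatory subunit of PI3K. The lower one was Irs2, another receptor substrate, at 8.29 on the Mical2-labelled array and 9.78 on the Mical3-labelled array, with 8.95 on the insert-free array and 8.62 on the untreated array. The pair of substrates thus differed in opposite directions between these arrays. Irs1 read 10.66 on the untreated array and 10.0 on the insert-free array, and its difference of 1.06 between the hairpin arrays lies just inside the fold required. Irs1, Irs2 and Pik3r3 were each read by 1 probe set. The list's called share was 8.51%, beside 7.53% of all genes.

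Against a single control more pathway genes were called. With the insert-free array alone, 4 of 47 were called higher (Adam12, Igfbp7, Irs1 and Stc2) and 3 lower (Foxo3, Grb14 and Insr) on the Mical2-labelled array, a share of 14.9% beside 10.7% of all genes. With that control 2 of 46 were called higher (Igfbp7 and Pik3cb) and 5 lower (Foxo3, Grb14, Htra1, Insr and Stat5a) on the Mical3-labelled array, a share of 15.2% beside 11.8%. With the untreated array alone, 1 of 47 was called lower on the Mical2-labelled array (Insr), a share of 2.13% beside 3.89%. On the Mical3-labelled array that control gave 2 higher (Igfbp7 and Irs2) and 2 lower (Adam12 and Htra1), a share of 8.51% beside 5.67%.

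Insr, Grb14 and Foxo3 were called lower against the insert-free array on both hairpin arrays, which share that control. Grb14, a relative of Grb10, differed from the insert-free array by -1.39 on the Mical2-labelled and -1.24 on the Mical3-labelled array. It read 8.17 on the untreated array, 8.76 on the insert-free array, 7.37 on the Mical2-labelled array and 7.52 on the Mical3-labelled array. Foxo3, a transcription factor that AKT inhibits, differed from it by -1.18 and -1.55, and read 9.48, 10.25, 9.07 and 8.70 in the same order. Igf2bp3, which binds Igf2 mRNA and was called in no comparison, read 7.79, 7.91, 6.96 and 7.03. Of the 17 PI3K, AKT and mTOR genes none was called against both controls on either hairpin array, where the shares of all genes were 2.73% and 3.87%. Nedd4, a ubiquitin ligase that binds Grb10, stayed between 11.19 and 11.60.

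**Figure D5:**
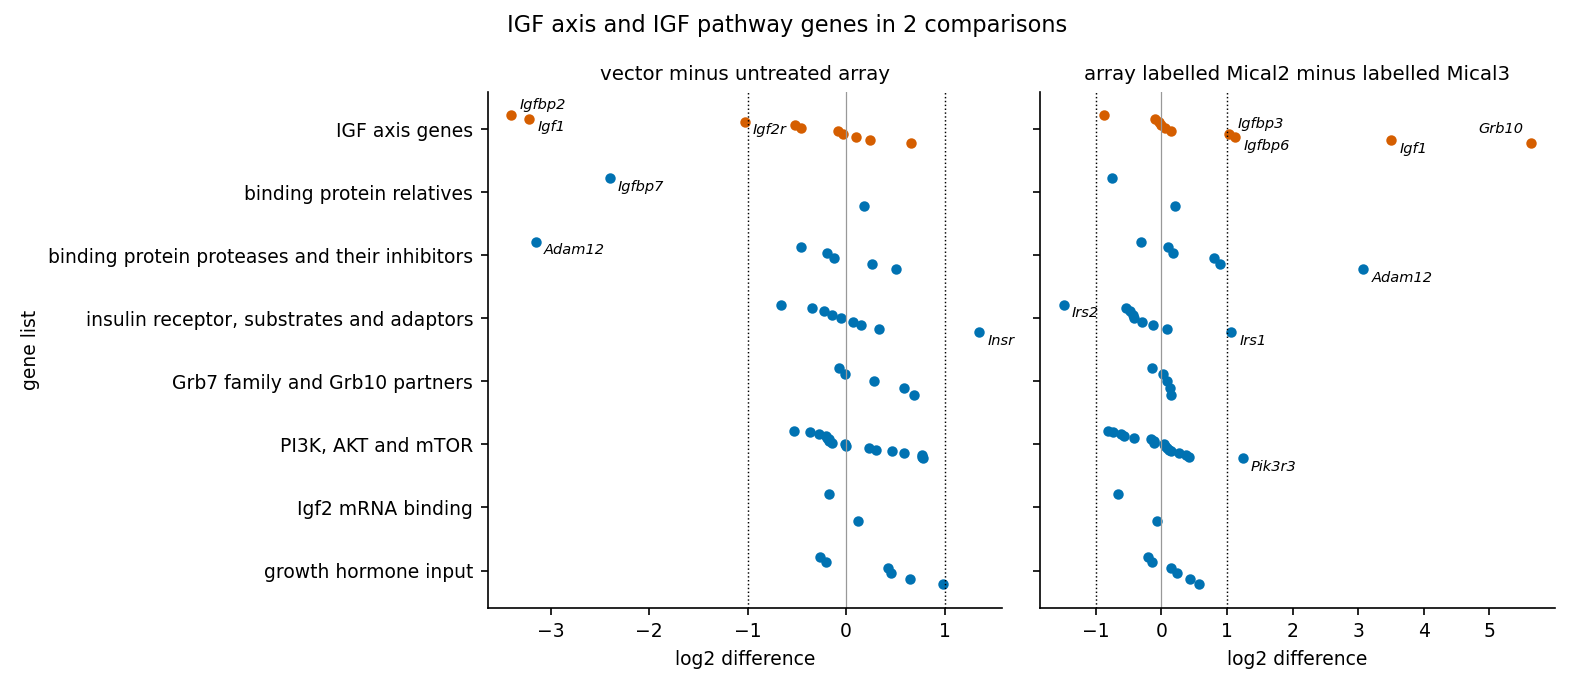
Log2 differences of the IGF axis genes (orange) and of the pathway genes that reached the floor (blue), by list, for the insert-free minus the untreated array (left) and the Mical2-labelled array minus the Mical3-labelled array (right), 1 point per gene, dotted lines at 1 and -1. Igf1 and Adam12 are low in the left panel and high in the right, while of the PI3K, AKT and mTOR genes only Pik3r3 (1.24, right) passes a dotted line, with Rictor at 0.78 in the left panel and Pik3cb at -0.81 in the right.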

How the data were processed

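Total RNA of SVEC4-10 cells was read on 3' expression arrays with biotin-labelled complementary RNA, 1 array per group, and groups were taken from the condition in the labels. The values the authors deposited are log2 levels per probe set, computed with RMA per the submitters' processing notes. Its version and settings are not given there. RMA as usually run corrects background, equalises array distributions by quantiles and summarises probes, which compresses differences near background.

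Of 45101 probe sets, 34945 had 1 gene symbol, 932 several, 9160 none, and 64 were controls. Symbols were updated through Entrez identifiers against a RefSeq gene table (GRCm38.p6), which matched 34741. Probe sets with several symbols were left out. The number of arrays limits the precision.

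Genes named are the 10 members, pathway genes called in a comparison or otherwise up to 4 per list with the largest difference from the vector array, and the 3 nearest profiles of the 3 members with the widest range. Not every gene the rule allows is printed. The members, lists and alternatives were chosen with earlier results of these data known. Calling by size was checked only on simulated levels, with changes well beyond the fold required in genes far above the floor. The simulated noise was smaller than the spread between probe sets. That check cannot show how calls near the fold or near the floor behave. Alternatives varied the control, fold, floor, probe set, normalization and pseudocount. Promoter sequences came from a RefSeq table of GRCm38.p6, which held 15 starts of the members. Python 3.11.15, numpy 2.4.6, pandas 2.3.3, statsmodels 0.14.6 and matplotlib 3.10.9 were used.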

Additional observations from a re-analysis of the deposited data

Results flagged for a closer look

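Grb10 lay on opposite sides of the controls on the hairpin arrays. On the Mical2-labelled array it was 0.34 above the insert-free array and 0.31 above the untreated array, sizes near the standard deviation between probe sets for these comparisons (0.35 and 0.26). On the Mical3-labelled array it was 5.30 and 5.33 below them. The Mical2-labelled array was 5.64 above the Mical3-labelled array, by 1 of 3 probe sets. With the mean of the 3 probe sets the Mical2-labelled array differed from the controls by -0.08 and -0.11, no longer on the opposite side. With 1 array per group this difference was not tested.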

How the results depend on the processing

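For the Mical2-labelled array, the count of 0 members called against both controls became 1 with the insert-free array alone (Igf1, higher), 1 with the untreated array alone (Igfbp2, lower) and 2 with the mean of both. For the Mical3-labelled array, the count of 1 became 2 with the insert-free array alone (with Igfbp6), 4 with the untreated array alone, 4 with the mean of both controls (with Igf1, Igfbp2 and Igfbp3 each time), 2 at 1.5-fold (with Igfbp3) and 0 without the probe sets ending in _x_at, _s_at or _a_at. That last setting leaves 6 members, and Grb10, Igfbp2, Igfbp4 and Igfbp5 have none but such probe sets. Between the hairpin arrays the count of 4 became 2 at 3-fold (Igf1 and Grb10). It became 5 at 1.5-fold and with the probe set of highest variance, where Igf1r was added as lower each time. Without the probe sets ending in _x_at, _s_at or _a_at it became 3, as Grb10 then has no value. The count of 3 for the insert-free against the untreated array stayed between 2 and 4 under every alternative run. Where it was 4, the added gene was called higher, Igfbp6 at 1.5-fold and Igfbp4 with the probe set of highest variance. The share of all genes called was lowest at 3-fold, 0.928% for the Mical2-labelled, 1.36% for the Mical3-labelled and 1.65% for the insert-free array and 3.14% between the hairpin arrays. It was highest with the insert-free array as sole control for the hairpin arrays (10.7% and 11.8%; 8.11% and 11.0% at 1.5-fold, 5.3% and 7.27% with the mean of controls) and at 1.5-fold for the insert-free array (17.6%) and between the hairpin arrays (19.2%). Of 336 recomputed member differences, 287 moved by no more than the spread between probe sets, 49 moved further, and none that was called changed sign. No paired analysis was possible because each group has 1 array. Levels below the floor have no reliable order.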
